A study of Mus musculus with 9 samples.

Results

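CpG methylation was described at 6 genes of the endoplasmic reticulum stress response and antibody secretion: Xbp1, Ern1, Atf6, Atf4, Creb3l2 and Ell2. Members were the CpGs that the authors' table assigns to one of these genes by closest transcription start site and that every library covered with 10 reads or more. This left 86 of the 283 CpGs deposited for the 6 genes, among 356320 CpGs of the whole table that met the same minimum. Creb3l2 had 28 of 90 CpGs, Atf4 25 of 61, Atf6 11 of 27, Ell2 9 of 22, Xbp1 7 of 64 and Ern1 6 of 19. The median of the members' lowest coverage over the libraries was 16 reads.

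Spleens of 10-week-old female C57Bl/6J mice were the source, with 3 libraries for each of 3 sorted groups. Untreated mice gave the naive B cells, sorted as B220+ CD43-. Mice given LPS, a bacterial cell wall component that drives B cells to secrete antibody, gave the other two groups on day 3: plasmablasts, sorted as CD138+ with a B220mid stain, and plasma cells, CD138+ and B220low. DNA was cut with MspI and treated with bisulfite before sequencing (reduced representation bisulfite sequencing), so that a CpG's level is the percentage of its reads that kept a cytosine. Which mouse each library came from is not given in the labels, so library-to-library spread may be technical. The limma p-values of gene means given below measure that spread. The quasi-binomial p-values of CpGs in the main fit rest on read counts and a dispersion shared by all CpGs. A CpG's own spread between libraries thus does not enter its quasi-binomial p-value, and the levels of the libraries show that spread. The files used here hold methylation and no expression, so the sorted cell types could be checked only at DNA: CpGs within 1000 bp of the start sites of the B cell genes Cd79b and Pax5 averaged under 5% in all 3 groups.

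Secretory cells fold large amounts of protein in the endoplasmic reticulum, and unfolded protein is sensed by membrane proteins of that organelle. Ern1 encodes IRE1 alpha, whose nuclease activity removes an intron from Xbp1 mRNA so that the active XBP1 transcription factor is made. Atf6 and Creb3l2 encode transcription factors held in the membrane and released by cleavage in the Golgi, and Atf4 encodes the transcription factor translated when the sensor PERK is active. Ell2 encodes an RNA polymerase II elongation factor that promotes the secreted form of immunoglobulin heavy chain mRNA in plasma cells.

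The start sites of 5 of these genes had low methylation on average in every group. The sequences just upstream of 3 of them show which CGs were measured, not their levels. They are RefSeq's (build GRCm38.p6), 250 bases 5′ to 3′ ending before the RefSeq start site, with capitals on the CGs that coincide with a CpG of the deposited table when the start sites are laid over each other. The deposited table uses mm9, and no coordinate was converted.
Atf4: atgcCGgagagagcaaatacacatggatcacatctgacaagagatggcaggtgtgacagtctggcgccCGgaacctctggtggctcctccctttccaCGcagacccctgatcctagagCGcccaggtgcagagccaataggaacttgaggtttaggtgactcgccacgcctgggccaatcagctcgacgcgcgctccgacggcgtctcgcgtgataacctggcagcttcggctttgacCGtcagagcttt
Creb3l2: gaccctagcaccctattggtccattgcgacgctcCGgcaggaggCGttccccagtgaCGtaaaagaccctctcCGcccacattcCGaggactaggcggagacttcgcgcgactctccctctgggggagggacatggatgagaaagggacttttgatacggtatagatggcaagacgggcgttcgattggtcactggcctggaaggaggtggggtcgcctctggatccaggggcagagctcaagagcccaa
Ern1: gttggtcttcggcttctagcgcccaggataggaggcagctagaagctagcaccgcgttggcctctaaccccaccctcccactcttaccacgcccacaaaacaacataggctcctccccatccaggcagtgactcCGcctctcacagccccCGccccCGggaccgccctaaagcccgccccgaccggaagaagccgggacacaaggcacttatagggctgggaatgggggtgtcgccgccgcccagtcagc
The Atf4 stretch is chr15:80254934-80255183 on the plus strand and holds 18 CGs, of which 5 were measured and 3 met the coverage minimum. The Creb3l2 stretch is chr6:37442149-37442398 on the minus strand, with 16 CGs and 5 measured, and the Ern1 stretch is chr11:106487797-106488046 on the minus strand, with 16 CGs and 3 measured. None of the CpGs measured in the Creb3l2 and Ern1 stretches met the coverage minimum. In the 300-base RefSeq window, which runs 50 bases past the start, the motif TGACG (either strand, the core of the element that ATF and CREB factors bind) occurs 2 times in Atf4, 1 time in Creb3l2 and not in Ern1. It is in 20.8% of 32851 windows of that length. For Xbp1 only 1 of 15 CpGs measured in the window coincided with a CG, and for Ell2 none was measured there, so their windows are not shown. Atf6 has no entry.

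Over all CpGs of the table within 1000 bp of the start, those below the minimum included, methylated reads were rare. At Xbp1 42 CpGs gave 1.33% of 2332 reads in naive B cells, against 3.91% of 2431 in plasmablasts and 0.648% of 3706 in plasma cells. The Atf4 start (36 CpGs) stood at 2.35%, 4.13% and 0.969%, and the Ern1 start (13 CpGs) at 1.35%, 5.24% and 1.44%. The Creb3l2 start (30 CpGs) stood at 0.929%, 3.27% and 1.04%, and the Ell2 start (18 CpGs) at 2.17%, 4.25% and 0.656%. CpGs near the Atf6 start were not analysed here. In each of the 5 windows the plasmablasts had the highest share. Single CpGs with few reads lay above these averages in plasmablasts. The Ern1 CpG 92 bp upstream was at 46.2%, 21.4% and 22.2% in plasmablasts, or 30.6% of 36 reads, against 6.06% of 66 in naive B cells and 7.58% of 66 in plasma cells, and was not called at the 5-read minimum (adjusted p = 0.0165). An Atf4 CpG 720 bp from the start was at 30% of 10 plasmablast reads and a Creb3l2 CpG 214 bp upstream at 19.0% of 21. Over 78187 CpGs of the whole table whose mean level is under 5%, the level was 2.08% to 6.11% in the plasmablast libraries, 3.13% and 2.63% in naive B cells 2 and 3, 0.749% in naive B cells 1 and 1.07% to 1.16% in plasma cells. The part of this library background in the low levels of the 6 genes was not tested.

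Of the 86 tested CpGs, 36 lay under 10% in naive B cells, 47 at 80% or more and 3 between. In naive B cells the low CpGs averaged 2.42%, against 4.05% in plasmablasts and 0.850% in plasma cells, and none was called in any comparison. The 47 high CpGs averaged 97.5%, 90.1% and 85.7%, while the 204656 CpGs of the whole table with such a level in naive B cells averaged 95.4%, 83.0% and 77.9%. By the authors' classes 45 of the 86 are intronic, 18 exonic, 16 in promoters and 7 intergenic. Of the promoter CpGs 11 are Atf4's, and 5 lie at the far end of Creb3l2, 109039 to 110523 bp from its main start, before the start of a short transcript annotated there. Those 5 were at 90.6% or more in every naive B library, so the class does not mark an unmethylated start site in that gene.

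**Figure D1:**
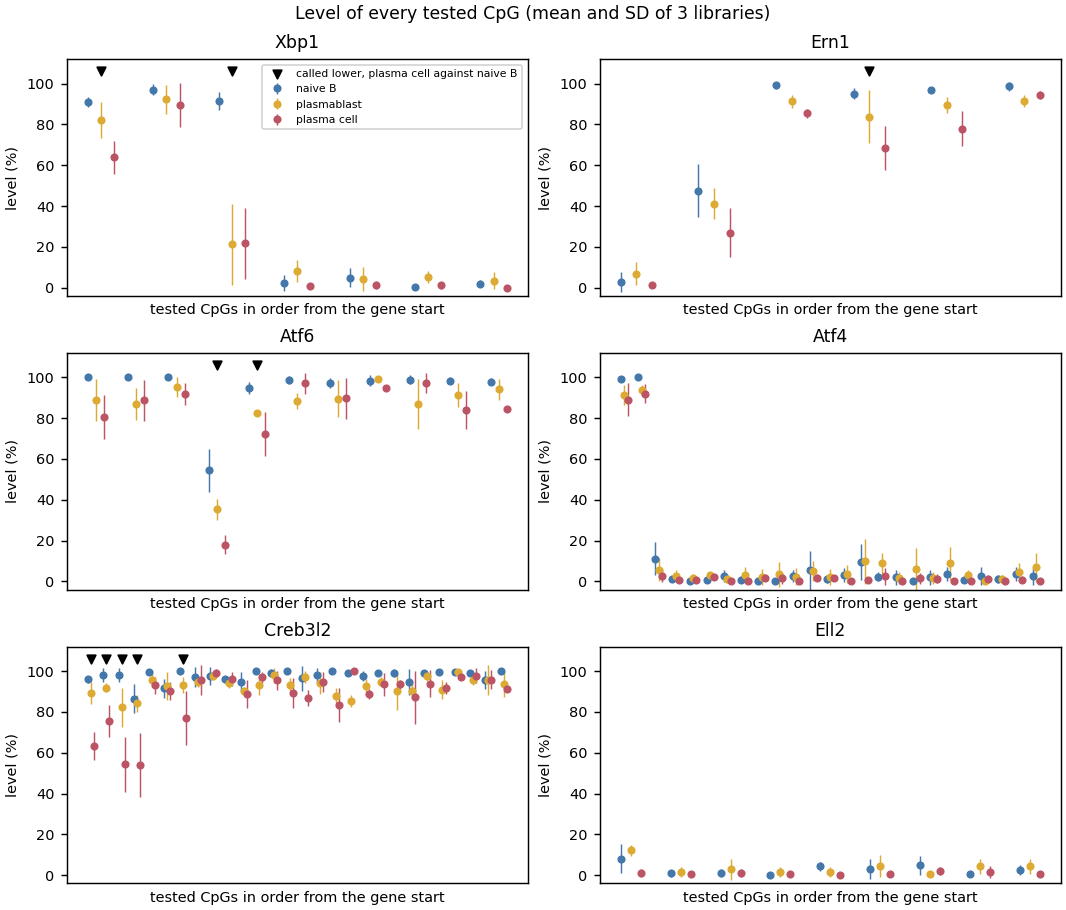
Level in percent (y axis) of every tested CpG of each gene, in order from the gene start (x axis). Points and bars are the mean and SD of 3 libraries for naive B cells, plasmablasts and plasma cells, and triangles mark CpGs called lower in plasma cells than in naive B cells. Ell2 and nearly all Atf4 CpGs lie near 0 in all groups, whereas most Atf6 and Creb3l2 CpGs are near 100% in naive B cells and lower in plasma cells by varying amounts.

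A CpG was called where a quasi-binomial model over all 9 libraries gave a Benjamini-Hochberg adjusted p under 0.01 over all 356320 CpGs and the pooled levels differed by at least 20 points. Between naive B cells and plasmablasts 1 of the 86 CpGs fell, against 10.5% of all tested CpGs. Between naive B cells and plasma cells 10 fell, against 22.6%, of which 8 are intronic and 2 intergenic. Without plasma cells 3 this count was 6, against 18.6% of all tested CpGs. Between plasmablasts and plasma cells 1 fell, against 0.583%. No member CpG was called higher in any comparison, against 0.0634%, 0.0443% and 0.000842% of all tested CpGs. At an unadjusted p under 0.05, 3 were higher in plasmablasts than naive B cells, 0 in plasma cells than naive B cells and 2 in plasma cells than plasmablasts. Of all 356320 tested CpGs, 11888, 1223 and 1430 were higher at that p in these comparisons. Limma on the log2 ratio of the 2 kinds of reads also called 0 members higher, against 98, 93 and 0 of all tested CpGs. A CpG near 0 cannot fall by 20 points, so the 47 high CpGs are the closer comparison: 1, 9 and 1 of them fell, against 16.2%, 33.2% and 0.62% of high CpGs in the whole table. The members' shares in both comparisons with naive B cells lay below those of the table, with no test of that difference. Both comparisons share the naive B libraries.

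Gene means over tested CpGs, each CpG weighted equally, were tested with limma over 16053 genes with at least 3 tested CpGs with a call needing both an adjusted p below 0.01 and 5 points or more of difference. Xbp1 and Atf6 fell in plasmablasts, where 53.7% of genes fell, and Xbp1, Atf6, Ern1 and Creb3l2 fell in plasma cells, where 79.1% fell. None of the 6 was called between plasmablasts and plasma cells, where 3.84% of all genes fell. None was called higher, against 0.0623% of genes in plasmablasts and 0.0249% in plasma cells. The median difference over all genes was -7.31, -12.2 and -4.57 points in the 3 comparisons.

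**Figure D2:**
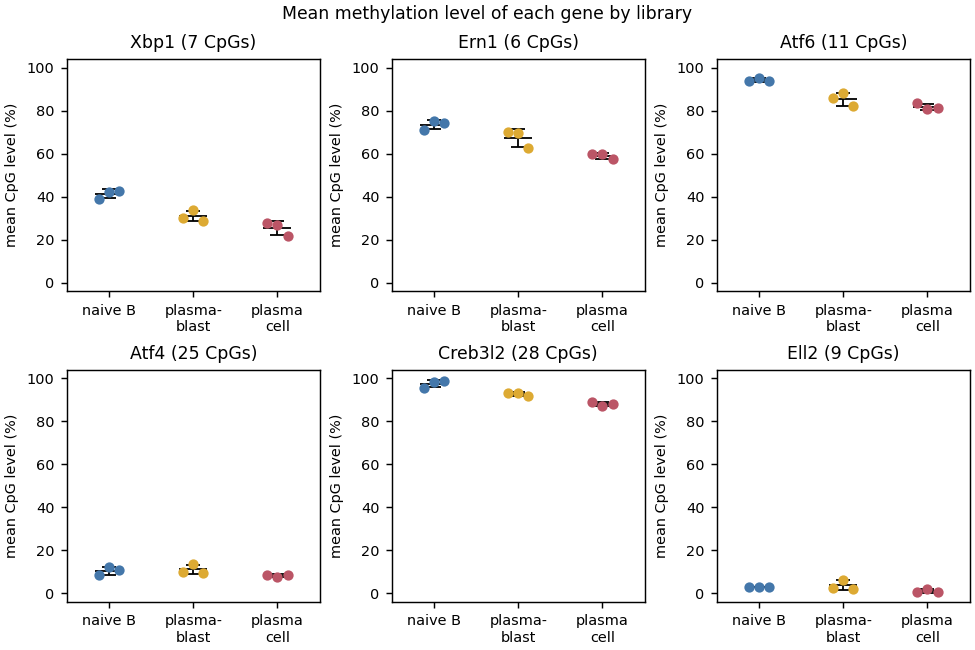
Mean methylation level in percent (y axis) of each gene over its tested CpGs in each library. Points are libraries, horizontal marks and bars the mean and SD of 3. Naive B libraries of Xbp1, Atf6, Ern1 and Creb3l2 lie above all plasma cell libraries, and Ell2 stays under 7% throughout.

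The largest change among the tested CpGs was upstream of Xbp1 (Entrez 22433, plus strand, chr11:5420970-5425875 in mm9). The CpG chr11:5417784, intergenic and 3185 bp upstream of the start, stood at 86.4%, 93.1% and 94.4% in naive B cells. It stood at 25%, 38.9% and 0% in plasmablasts and at 40%, 20.0% and 5.26% in plasma cells. All 6 stimulated libraries were below all naive B libraries, and plasmablasts and plasma cells overlapped. The pooled level fell by 66.9 points in plasmablasts (quasi-binomial adjusted p = 1.11e-08) and by 70.8 in plasma cells (adjusted p = 1.36e-10), and plasma cells differed from plasmablasts by -3.94 points (adjusted p = 0.885). Its coverage ran from 10 to 29 reads.

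Neighbouring CpGs did not move to the same extent. At 3500 bp upstream the level was 91.3%, 88.5% and 93.3% in naive B cells, 81.8%, 73.3% and 90.9% in plasmablasts and 72.7%, 61.5% and 57.1% in plasma cells. The plasma cell libraries were all below the naive B libraries, and the plasmablasts overlapped the naive B cells. The pooled level fell by 25.3 points in plasma cells (adjusted p = 0.00875). The adjusted p of that drop went above 0.01 in 6 of 9 fits that left out 1 library, up to 0.0418 without plasma cells 3. The next CpG, 3497 bp upstream, stood at 95.0%, 95.8% and 100% in naive B cells and at 78.6%, 100% and 90% in plasma cells, a difference of -8.19 points (adjusted p = 0.274). On the other side of the CpG that changed most lies a CpG 3144 bp upstream, with as few as 2 reads in a library. It was at 100% of 31 reads in naive B cells, 93.3% of 15 in plasmablasts and 44.4% of 27 in plasma cells, and was not tested. It is among the 5 of 64 deposited Xbp1 CpGs that the authors' plasma cell list holds. At the minimum of 5 reads the CpG 2794 bp upstream fell by 24.6 points in plasma cells (quasi-binomial adjusted p = 0.00941). Those 2797 and 2801 bp upstream were not called (adjusted p = 0.0997 and 0.243).

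The 4 other tested Xbp1 CpGs lie in the gene, 553 to 745 bp from the start and within an intron by the authors' class. The nearest, at 553 bp, stood at 0%, 6.67% and 0% in naive B cells, 7.32%, 14.0% and 3.12% in plasmablasts and 0%, 2.74% and 0% in plasma cells, and was not called in either comparison with naive B cells (adjusted p = 0.0818 and 0.759). The gene mean, which joins 3 upstream and these 4 CpGs, was 41.3% ± 2.05 in naive B cells, against 30.9% ± 2.52 in plasmablasts and 25.5% ± 3.24 for plasma cells (SD, n = 3). It fell by 10.4 points in plasmablasts (SE 1.93, limma adjusted p = 0.000623) and by 15.8 in plasma cells (adjusted p = 1.11e-05). At a minimum of 5 reads, where more CpGs near the start enter, the plasmablast difference was -1.89 points (adjusted p = 0.270), and the plasma cell difference -5.54 (adjusted p = 0.00357). At 20 reads the 3 upstream CpGs drop out and only the 4 in the gene enter. The differences of the mean of those 4 were 2.82 (adjusted p = 0.206) and -1.66 (adjusted p = 0.421). With reads summed over the gene the plasmablast difference was -9.50 (adjusted p = 0.118).

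**Figure D3:**
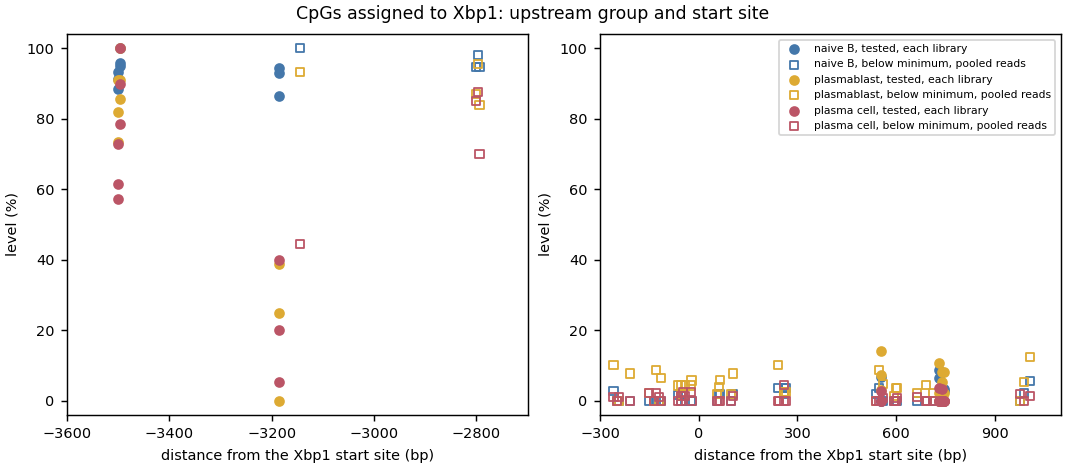
Level in percent (y axis) of CpGs assigned to Xbp1 against distance from its start site in bp (x axis), upstream on the left and around the start on the right. Filled points are single libraries at tested CpGs and open squares the pooled reads of a group at CpGs below the coverage minimum. At 3185 bp upstream the naive B libraries lie near 90% and all other libraries at 40% or less, while CpGs in the right panel are at 14.0% or less; a CpG 1390 bp from the start, at 38.5% of 13 plasmablast reads, lies beyond that panel.

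Ern1 (Entrez 78943, minus strand, chr11:106258934-106349110) had 6 tested CpGs, all intronic. The CpG chr11:106323451, 25658 bp into the gene, stood at 96.0%, 97.3% and 92.0% in naive B cells, at 93.1%, 89.7% and 68.8% in plasmablasts and at 57.6%, 79.2% and 68.0% in plasma cells. All plasma cell libraries were below all naive B libraries, and 1 plasmablast library lay among the plasma cell values. It fell by 28.2 points in plasma cells (adjusted p = 5.88e-06), and the difference of -12.2 in plasmablasts was not called (adjusted p = 0.0327). Of the others, 1 was part-methylated in naive B cells (33.3%, 50.0% and 59.1%) and was not called, and the one nearest the start, 810 bp into the gene, was at 0%, 8.33% and 0% in naive B cells and at most 13.3% in any library. The gene mean went from 73.4% ± 2.06 in naive B cells to 67.3% ± 4.13 in plasmablasts and 59.1% ± 1.45 in plasma cells. The difference was -6.03 points in plasmablasts (limma adjusted p = 0.0261, not called), and the gene fell by 14.3 points in plasma cells (adjusted p = 5.45e-05). At 5 reads the plasma cell difference was -5.03 (adjusted p = 0.00762) and the plasmablast difference 0.667 (adjusted p = 0.707), and with reads summed over the gene the plasma cell difference was -23.4 (adjusted p = 0.00257).

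Atf6 (Entrez 226641, minus strand, chr1:172634588-172797902) had 11 tested CpGs, all intronic and none closer than 23355 bp to its start. The gene mean fell from 94.4% ± 0.853 in naive B cells to 85.3% ± 3.06 in plasmablasts (limma adjusted p = 0.00118) and 81.7% ± 1.49 in plasma cells (adjusted p = 4.65e-05), by 9.07 and 12.7 points. The plasmablast difference was -13.6 at 5 reads and -7.47 at 20 reads, where it was not called (adjusted p = 0.0111). In naive B cells 10 of the 11 were at 80% or more, and 2 of the 11 were called lower in plasma cells. The CpG chr1:172750365, 47536 bp into the gene, was the part-methylated one, at 57.1%, 63.2% and 42.9% in naive B cells, 30.4%, 40.6% and 35.0% in plasmablasts and 16.7%, 23.1% and 14.3% in plasma cells. The 3 groups did not overlap there, and it fell by 39.9 points in plasma cells (adjusted p = 0.000356). The plasmablast difference of -21.6 was not called (adjusted p = 0.0620). A second CpG, chr1:172745330, fell by 22.2 points in plasma cells (adjusted p = 0.00181). Without naive B cells 2 neither was called (adjusted p = 0.0228 and 0.0101), nor was the second without plasma cells 3 (adjusted p = 0.0322). The CpG closest to the start was at 100% in every naive B library and at 92.9%, 72.7% and 76.5% in plasma cells (adjusted p = 0.00455, -19.0 points, under the 20-point minimum).

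With the coverage minimum lowered to 5 reads, a pair of further Atf6 CpGs was called. Under that setting 167 member CpGs were tested, and 4 fell in plasmablasts and 17 in plasma cells, including the 1 and 10 called at 10 reads. Of all CpGs tested under it, 9.31% and 21.0% fell. The CpGs chr1:172775976 and chr1:172776010, 21925 and 21891 bp into the gene, had as few as 9 reads in a library. The first had 75.9% of 58 reads methylated in naive B cells, against 3.23% of 31 in plasmablasts and 3.57% of 56 in plasma cells, and the second 67.2% of 58, 0% of 32 and 3.57% of 56. Both fell in plasmablasts (adjusted p = 3.23e-08 and 4.01e-08) and in plasma cells (adjusted p = 2.53e-12 and 4.67e-10). They are also in both of the authors' deposited lists of differential CpGs.

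Atf4 (Entrez 11911, plus strand, chr15:80085614-80087971) had 25 tested CpGs, 22 of which averaged under 10% in all 3 groups. Its CpG nearest the start, 11 bp upstream, stood at 0%, 3.45% and 0% in naive B cells, 0%, 0% and 6.67% in plasmablasts and 2.27%, 0% and 2.22% in plasma cells. The groups overlapped, and neither comparison with naive B cells was called (adjusted p = 0.884 and 0.782). The 2 highly methylated CpGs, 7177 and 5070 bp upstream of the start, lie in exons of the neighbouring gene Mief1 and were at 97.6% or more in naive B cells and at 80.8% or more in the other libraries. The gene mean was 10.4% ± 1.75, 11.0% ± 2.26 and 8.08% ± 0.688 in naive B cells, plasmablasts and plasma cells, and no comparison was called (limma adjusted p against naive B cells = 0.719 for plasmablasts and 0.160 for plasma cells). At 5 reads the plasma cell difference was -5.41 points and was called (adjusted p = 0.00979). At the minimum of 5 reads 2 CpGs further into the gene were called lower in plasma cells: 1274 bp from the start, 49.1% of 53 reads were methylated in naive B cells, against 16.7% of 24 in plasmablasts and 11.1% of 54 in plasma cells, and 1283 bp from the start the shares were 30.4% of 56, 8.70% of 23 and 1.61% of 62 (adjusted p = 0.000455 and 0.000198).

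Creb3l2 (Entrez 208647, minus strand, chr6:37281021-37392148) had 28 tested CpGs, all at 80% or more in naive B cells. Its mean went from 97.5% ± 1.65 in naive B cells to 92.7% ± 0.899 in plasmablasts, a difference of -4.83 points (limma adjusted p = 0.0180, not called), and fell by 9.52 points to 88.0% ± 0.894 in plasma cells (adjusted p = 0.000128). With a term for whether a library's background was under 2%, the plasma cell difference was -7.66 points (adjusted p = 0.0124). That term rests on naive B cells 1 against naive B cells 2 and 3, since no other group has libraries on both sides. At a minimum of 20 reads the plasma cell difference was -3.17 (adjusted p = 0.140). In plasma cells 5 CpGs fell, all intronic. A group of 3 lies close together, 17564 to 17590 bp into the gene. The CpG chr6:37374557 stood at 100%, 94.3% and 100% in naive B cells, 91.3%, 83.3% and 72.2% in plasmablasts and 66.7%, 40% and 56.0% in plasma cells, where it fell by 40.8 points (adjusted p = 2.69e-07). The CpG chr6:37374583 stood at 94.1%, 97.1% and 96.4%, then 91.3%, 93.3% and 83.3%, then 55.6%, 66.7% and 68.0%, and fell by 33.5 points in plasma cells (adjusted p = 1.87e-05). Plasmablast libraries lay between the naive B and plasma cell libraries at both. The third, chr6:37374566, fell by 24.1 points (adjusted p = 0.000162); it and chr6:37332818, which fell by 21.6 points (adjusted p = 0.000109), were named after their values were seen. Adjacent CpGs are read by the same fragments and are not independent. At the minimum of 5 reads a nearby CpG, 17843 bp into the gene, had 98.9% of 88 reads methylated in naive B cells, against 53.2% of 62 in plasmablasts and 40% of 50 in plasma cells, and fell in both comparisons (adjusted p = 1.10e-08 and 9.76e-12).

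One Creb3l2 CpG, chr6:37365952, 26195 bp into the gene, was the member called between plasmablasts and plasma cells. It stood at 80.4%, 84.8% and 94.1% in naive B cells, 86.2%, 87.0% and 79.4% in plasmablasts and 71.4%, 50.0% and 41.0% in plasma cells. Plasmablasts overlapped naive B cells, and plasma cells lay below both. It fell by 30.6 points from naive B cells (adjusted p = 0.000146) and fell by 29.9 from plasmablasts (adjusted p = 0.00848), while plasmablasts differed from naive B cells by -0.65 points (adjusted p = 0.955). Left-out libraries moved the plasmablast comparison across the threshold: the adjusted p was 0.0426, 0.0764 and 0.0255 without plasmablasts 1, 2 and 3, and 0.0432 and 0.170 without plasma cells 2 and 3. Limma on log2 ratios did not call it either (adjusted p = 0.0823), and without plasma cells 3 the comparison with naive B cells gave 0.0111. The CpG at the far end of the gene, closest to the short transcript's start, was at 100% in all naive B libraries and at 90% to 93.1% in plasma cells, and was not called (adjusted p = 0.0111).

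**Figure D4:**
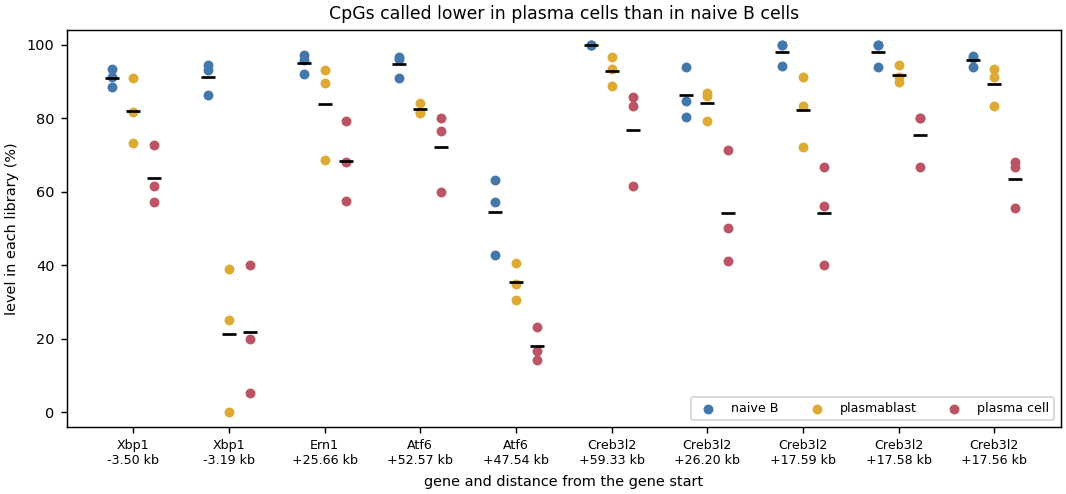
Level in percent (y axis) in each library of the 10 CpGs called lower in plasma cells than in naive B cells, labelled by gene and distance from the gene start (x axis). Points are libraries and horizontal marks the means of 3. The Xbp1 CpG 3.19 kb upstream is low in plasmablasts and plasma cells alike, while the Creb3l2 CpGs are high in plasmablasts and lower in plasma cells.

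Ell2 (Entrez 192657, plus strand, chr13:75844932-75909806) had 9 tested CpGs, all of them low. The 5 in its intron, 601 to 650 bp from the start, and 4 intergenic ones beyond the gene's end had group means under 13% in all groups. The CpG at 601 bp was the highest, at 0%, 13.3% and 11.1% in naive B cells, 9.09%, 13.0% and 14.3% in plasmablasts and 0%, 3.33% and 0% in plasma cells, and was not called (adjusted p = 0.616 and 0.0216). The gene mean was 2.81% ± 0.0674, 3.70% ± 2.30 and 0.899% ± 0.884, and no comparison was called (limma adjusted p = 0.585 and 0.207 against naive B cells). The plasmablast mean is carried by plasmablasts 2 (6.34%), the library with the highest background (6.11%).

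The authors' deposited lists of differential CpGs hold 1 tested member for plasmablasts, the Xbp1 CpG 3185 bp upstream; the plasma cell list holds 7, all 7 of which were called here. Of all deposited CpGs of the 6 genes, 4 and 15 are in the lists.

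Other genes of the pathway were taken from a list of 45 unfolded protein response genes, 41 of which had tested CpGs (732 in all). Of these CpGs 58 fell in plasmablasts and 141 in plasma cells, 7.92% and 19.3%, against 10.5% and 22.6% of all tested CpGs, with 0 called higher in either comparison. These shares were not matched for starting level. Between plasmablasts and plasma cells 1 fell, or 0.137%, against 0.583%. Among the 38 genes with enough CpGs 21 fell in plasmablasts and 33 in plasma cells, against 53.7% and 79.1% of all genes. Creb3l3, a liver and gut relative of Creb3l2, had the highest share, with 7 of 12 CpGs lower in plasma cells, and its mean fell from 64.8% ± 2.83 to 40.7% ± 3.03. Ern2, the epithelial relative of Ern1, had 5 of 12, with a mean that fell from 94.7% ± 1.74 to 78.6% ± 1.08. Dnajb9, a co-chaperone of the endoplasmic reticulum, had 8 of 24 and Pdia6, a disulfide isomerase, 4 of 12. At the other end Mbtps1, the protease that cleaves ATF6, had 0 of 12 and Sdf2l1, a chaperone complex component, 1 of 20. Median gene differences were -6.80 points in plasmablasts and -12.2 in plasma cells, beside -7.31 and -12.2 over all genes.

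A list of 15 partners of ELL2 in elongation and 3′ end processing had 12 genes with 188 tested CpGs, 6 lower in plasmablasts and 26 in plasma cells (3.19% and 13.8%, against 10.5% and 22.6% of all tested CpGs), with 0 higher. Of its 10 testable genes 2 fell in plasmablasts and 5 in plasma cells, against 53.7% and 79.1% of all genes. Its median gene differences were -3.32 and -5.29 points, beside -7.31 and -12.2 over all genes. These shares and differences were not matched for starting level, and the list's gene means ran from 2.34% (Eaf2) to 97.2% (Aff4) in naive B cells. Mllt1, a subunit of the super elongation complex, had 6 of 15 CpGs lower in plasma cells and a mean that fell from 74.0% ± 2.22 to 57.4% ± 2.42. Mllt3 and Aff1, of the same complex, had 8 of 51 and 8 of 54. Cdk9, the kinase of that complex, had 1 of 16 and Ccnt2, a cyclin partner of it, 0 of 16.

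By Euclidean distance over the 9 library means among 14219 other genes with at least 5 tested CpGs, the genes most like Xbp1 were Sema7a and Slc31a2 (4.33 and 5.32 points), and those most like Ern1 were Fam46b and Padi2 (5.97 and 6.05). For Atf6 they were 4932411E22Rik and Lppr4 (3.39 and 3.54), and for Atf4 Mapkapk2 and Ing1 (1.70 and 1.76). For Creb3l2 they were B4galt7 and Zfp26 (3.05 and 3.37), and for Ell2 Arfgap1 and Gm5113 (1.83 and 2.08).

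Over the whole table, library totals ran from 16037172 to 29948088 reads and the median coverage of tested CpGs from 24 to 36 reads. Naive B cells 1 and all plasma cells had under 2% methylation at the CpGs of the background, and the other 5 libraries more. With that split as a term, 4 of the 10 plasma cell calls were kept: the Xbp1 CpG 3185 bp upstream, the Ern1 CpG and 2 Creb3l2 CpGs. The share of all tested CpGs called lower in plasma cells went from 22.6% to 11.3%. Only the naive B group holds libraries on both sides of the split. The term thus rests on naive B cells 1 against naive B cells 2 and 3. Among the T cell markers listed, only Lck and Cd5 had tested CpGs near their starts. The 19 CpGs of Lck averaged 12.2%, 13.0% and 8.99%, and the 6 CpGs near the Cd5 start averaged 94.9%, 79.7% and 64.5% in naive B cells, plasmablasts and plasma cells. Myeloid Cebpa (11 CpGs) was under 5% in every group, and the 1 CpG of Csf3r was at 7.33%, 12.7% and 8.66%.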

How the data were processed

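The authors deposited, per the file headers, counts of methylated and unmethylated reads for 911004 CpGs in 9 libraries, with strands summed, and the level as a fraction, which equals the counts' ratio; per the submitters' processing notes Bismark and Bowtie2 were used against mm9 (versions not given in the sources used here). Deposited lists of differential CpGs, with p-values per the file headers, were used only for membership. The 39.1% of CpGs with at least 10 reads in all 9 libraries were tested in R 4.3.3 with limma 3.58.1 and data.table (version 1.17.8). Members and gene lists were chosen with earlier results of these data known, and named CpGs follow a rule: per gene the 3 largest called drops in plasma cells, any call between plasmablasts and plasma cells, and the CpG nearest the start; for the pathway lists the 3 highest and 2 lowest shares called among genes with at least 10 CpGs; and the 2 most similar genes.

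A quasi-binomial model with one level for each group was fitted to every CpG, deviances were compared by F tests, and p-values were Benjamini-Hochberg adjusted. The dispersion came to 1.27 for every CpG. It was first estimated from all CpGs, which gave 1, 8 and 0 member calls in the 3 comparisons; after those counts were seen it was estimated from CpGs at 10% to 90%, because CpGs near 0% or 100% carry little spread, and this gave 1, 10 and 1. The measured dispersion rose with depth, from 1.16 at up to 20 reads to 1.31 at 40 to 60 and 16.4 above 100; members averaged at most 48.3 reads. On simulated data with a constant spread, 1 of the unchanged CpGs passed the adjusted p and 0 were called. A first simulation whose spread grew with depth passed 65 and called 1, with 1 of the 65 at 60 reads or fewer. Drops in plasma cells against naive B cells were simulated with constant spread. Of drops of 20 points 6% were called, of 30 points 36%, of 40 points 78% and of 50 points 94%. Of genes shifted by 10 points 36% were called. The simulation changed 50 CpGs of each size among 356320, and 200 of 16053 genes. In the data 80698 CpGs and 12699 genes were called lower. The Benjamini-Hochberg adjustment is stricter where fewer change, so these rates do not carry over to the data. A missing call does not show that a CpG was unchanged. Intervals and reads cover counting error only, since PCR copies cannot be told from separate molecules. Replicate libraries correlated at 0.956 to 0.986 and were each counted as 1 sample.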

Additional observations from a re-analysis of the deposited data

How the results depend on the processing

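The Xbp1 CpG 3185 bp upstream was called in both comparisons with naive B cells in every alternative in which it was tested; it is absent at the 20-read minimum. Member CpGs called lower in plasmablasts against naive B cells numbered 1, and 3 with a minimum difference of 10 points, 4 at 5 reads and 0 at 20 reads (of 30 tested). The shares of all CpGs tested under each setting were 10.5%, 19.8%, 9.31% and 11.7% in turn. With any library left out the count was 1, against 8.44% to 10.8% of all tested CpGs. Member CpGs called lower in plasma cells against naive B cells numbered 10, and 18 at 10 points, 5 at 30 points, 17 at 5 reads, 1 at 20 reads and 4 with a library set term, with 6 to 11 over left-out libraries. The shares of all CpGs tested under each setting were 22.6%, 35.4%, 9.37%, 21.0%, 24.7% and 11.3% in turn. Over left-out libraries they ran from 18.6% to 25.3%. The 6 came without plasma cells 3, and all 6 were among the 10. Between plasma cells and plasmablasts the count of 1 became 0 at 30 points, at 20 reads, with limma on log2 ratios and with the library set. It was also 0 with the replicate block and with the dispersion prior from all CpGs. That prior was used first, and the prior of the main fit was chosen after its counts were seen. The shares of all CpGs tested under each setting were 0.339%, 0.747%, 0%, 0.00168%, 0.464% and 0% in turn, beside 0.583%. Over left-out libraries the count was 0 to 1 and the share 0.124% to 0.960%. The dispersion prior from all CpGs gave 1 and 8 in the other comparisons, against 2.39% and 16.3% of all tested CpGs. Whether the replicate numbers pair the libraries is not known. Deviations of same-numbered libraries correlated at -0.0287 to 0.0302, and of others at -0.0368 to 0.0419. Deviations at single CpGs hold counting error, so these values cannot decide whether libraries share a mouse. With the replicate block the counts were 1, 10 and 0, against 10.2%, 22.2% and 0.464% of all tested CpGs.

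Gene means depend on which CpGs enter. The Xbp1 difference in plasmablasts was -1.89 at 5 reads and 2.82 at 20 reads, and -9.50 with reads summed over the gene (adjusted p = 0.118). In plasma cells it was -1.66 at 20 reads, a minimum that none of the upstream Xbp1 CpGs met. At 5 reads, where many start site CpGs enter, Ern1 in plasmablasts was 0.667. Atf6 in plasmablasts was -7.47 at 20 reads (adjusted p = 0.0111). Creb3l2 in plasma cells was -3.17 at 20 reads and -7.66 with the library set (adjusted p = 0.0124). Atf4 in plasma cells was -5.41 at 5 reads, now called (adjusted p = 0.00979), and in plasmablasts, where it was not called, -1.90 at 5 reads and -0.293 with the library set. Over left-out libraries Atf4 in plasmablasts ran from -0.667 to 1.45 and Ell2 from -0.432 to 1.66. Some differences that were not called changed sign over left-out libraries: Xbp1 at 553 bp in plasma cells from -2.22 to 1.11, Ern1 at 810 bp in plasma cells from -3.04 to 1.31, Atf4 at -11 bp from -0.917 to 1.71 in plasmablasts and from -0.635 to 1.54 in plasma cells, and Creb3l2 at 26195 bp in plasmablasts from -4.28 to 2.16. The cause of these changes was not tested. Ell2 had too few CpGs for a mean at 20 reads.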
